A study of Mus musculus with 12 samples.

Results

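Most of the genes described here code for proteins of the cytosolic ribosome, the particle that translates messenger RNA in the cytoplasm. They were chosen by symbol: Rpl or Rps followed by a number, Rplp0 to Rplp2, and Rpsa, leaving out the S6 kinases and pseudogenes. The array annotation held 83 such symbols. Of these, 69 had a probe set that names no other gene, out of 22180 genes measured in that way, and these 69 are the members described. A gene with several such probe sets is represented by its brightest. The other 14 (Rpl10, Rpl12, Rpl13a, Rpl23, Rpl24, Rpl31, Rpl35a, Rpl36, Rpl36a, Rpl36al, Rps15a, Rps2, Rps21 and Rps27rt) shared every probe set with another symbol and have no value here.

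The arrays measured total RNA from adipocytes grown out of inguinal fat precursors of R26Cre/Prdm16floxEx9 mice. All 4 groups carried that genotype: Cre is driven from Rosa26, and exon 9 is floxed in Prdm16, whose product directs thermogenic fat genes. During growth the precursors received ethanol or 1 uM 4-hydroxytamoxifen, the ligand that switches on inducible Cre, for 3 days, and all were then differentiated with the same hormone mixture. The groups EtOH and 4OHT had no rosiglitazone, and EtOH_Rosi and 4OHT_Rosi had 1 uM of it, an agonist of the adipocyte nuclear receptor PPARgamma. Each group had 3 arrays. No label says that the arrays of a group came from separate cultures, and the p-values therefore reflect only how far these arrays spread, which may be technical.

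A ribosome has a small subunit, which reads the messenger RNA, and a large subunit, which joins amino acids. Their proteins, named Rps and Rpl, are made in matched amounts, and their messenger RNAs are among the most abundant of a cell. Most of these messages begin with a C followed by a run of C and T, the terminal oligopyrimidine or TOP motif, through which the kinase mTOR controls their translation. Growing cells make more ribosomes than resting ones, and fat precursors stop dividing as they become adipocytes.

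The start sites of some members show that run. RefSeq (build GRCm38.p6) gave 63 starts for 54 of the 69 members. In the 30 bases around the start, 15 on each side, a run of 8 or more C and T on the coding strand stood at 39.7% of these 63 starts. The share was 12% over all 32851 starts of the same table and 11.8% at 68 starts of mitochondrial ribosomal protein genes. The first 4 sequences below belong to the members with the longest runs among those that fell with rosiglitazone after ethanol. Rps6 follows as the brightest member, and then 3 symbols whose protein is a paralog or a partner of a standard subunit and whose level did not pass the test in that comparison. Each is written 5′ to 3′ on the coding strand, its start site is base 16, and capitals mark the longest C and T run where it has 8 bases or more. Where RefSeq gave several starts, the one with the longest run is shown.
Rpl7a, chr2:26910792-26910821, plus strand: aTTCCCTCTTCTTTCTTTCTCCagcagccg
Rpl27a, chr7:109519180-109519209, plus strand: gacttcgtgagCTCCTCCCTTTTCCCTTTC
Rpl35, chr2:39005117-39005146, minus strand: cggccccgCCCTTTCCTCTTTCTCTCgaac
Rpl15, chr14:18270972-18271001, minus strand: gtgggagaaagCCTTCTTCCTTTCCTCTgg
Rps6, chr4:86857353-86857382, minus strand: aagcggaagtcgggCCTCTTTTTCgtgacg
Rps27l, chr9:66946071-66946100, plus strand: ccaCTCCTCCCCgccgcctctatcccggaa
Rpl7l1, chr17:46782642-46782671, minus strand: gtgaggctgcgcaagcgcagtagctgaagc
Rps19bp1, chr15:80264292-80264321, minus strand: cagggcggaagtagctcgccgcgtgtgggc
The run crosses the annotated start in Rpl7a, Rpl27a, Rpl35, Rpl15 and Rps6. It lies wholly before the start in Rps27l, and the windows of Rpl7l1 and Rps19bp1 hold no run of that length. The run stood at 14 of 31 starts (45.2%) of members that fell with rosiglitazone after ethanol and at 11 of 32 starts (34.4%) of the others. These shares are descriptions with no test of their difference, and several members have more than 1 start.

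Further upstream, the letters CCGGAAG, which hold the core of sites bound by ETS-family factors, were searched on both strands over the 250 bases before and 50 after each start. They stood at 36.5% of member starts and 8.86% of all starts, and at 33.8% of the mitochondrial ribosomal starts. Among members that fell with rosiglitazone after ethanol the share was 38.7%, and among the others it was 34.4%. The 100 bases before the start are shown for the 3 members with the largest falls. The letters, in capitals, stand once in that of Rps3a1 and do not occur in those of Rpl13 and Rps12.
Rps3a1, chr3:86142669-86142768, minus strand: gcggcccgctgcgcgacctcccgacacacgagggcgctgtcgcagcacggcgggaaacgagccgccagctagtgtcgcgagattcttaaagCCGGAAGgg
Rpl13, chr8:123102250-123102349, plus strand: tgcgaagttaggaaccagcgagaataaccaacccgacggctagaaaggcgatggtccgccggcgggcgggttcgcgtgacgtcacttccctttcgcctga
Rps12, chr10:23787210-23787309, minus strand: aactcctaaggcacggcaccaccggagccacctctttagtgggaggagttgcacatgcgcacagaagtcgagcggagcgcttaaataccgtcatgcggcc
A match is a description of these letters and does not show that a factor binds there, nor does a missing match show the opposite.

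Over the whole series, array medians lay between 5.97 and 6.05 on the log2 scale, and 3 arrays a group limit the precision. Rosiglitazone separated the arrays along the first principal component (60.9% of variance). 4OHT_Rosi 3 stood apart on the third component (16.03, the others between -8.95 and 7.97). Prdm16, the targeted gene, measured 6.63 ± 0.19 without treatment by either drug (EtOH) and 6.46 ± 0.13 in 4OHT (SD, n = 3 each). With rosiglitazone it measured 7.37 ± 0.14 in EtOH_Rosi and 6.65 ± 0.04 in 4OHT_Rosi. It was lower in 4OHT_Rosi than in EtOH_Rosi (-0.71, adjusted p = 0.000646), while 4OHT and EtOH differed by -0.17 (adjusted p = 0.455). Where its probes lie relative to exon 9 is not known here. The adipocyte genes Fabp4, Plin1 and Adipoq were bright in every group, with lowest group means of 13.54, 12.08 and 10.57.

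The members ran from 4.11 to 13.21 in mean log2 level, with a median of 9.56 against 6.6 for all genes tested. A probe set's brightness depends on its probes, so these levels do not rank the genes by abundance. Of the 69 members 43 lay at a level of 8 or more and 26 below it. That line was drawn after the levels were seen; Rpl39l (8.07) and Rps25 (8.10) stood just above it and Rps18 (7.52) just below. Rps6 (13.21), the substrate of the S6 kinases, Rpl21 (13.03) and Rpl41 (12.90) were the brightest, and 11 of the 271 genes at 12 or more were members. The dimmest were the near-copy Rpl32l (4.11), Rpl10l (4.53), a paralog known from testis, and Rpl3l (4.93), a paralog known from striated muscle. Standard subunits were dim too: Rpl11 (5.45) and Rpl5 (6.08), which escort the 5S rRNA into the large subunit, and Rps15 (5.83), Rps20 (5.89), Rps14 (6.04) and Rplp2 (6.10). Ribosomal protein genes have many near-identical pseudogenes and copies, and probes can read several of them. Which copies these probes read was not tested, so single genes, such as Rpl6 (6.64) and its near-copy Rpl6l (11.33), are uncertain. The median spread within groups was 0.071 (SD) for members at 8 or more, against 0.075 for all genes at that level. It was 0.13 for members below 8 and 0.10 for all genes. Differences below are log2 values (first group minus second) from limma, ± its standard error, with 3 arrays in each group. The p-values were adjusted by Benjamini and Hochberg's method across the 22180 genes, and a gene was called at an adjusted p under 0.05.

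The first comparison asked what rosiglitazone changed in cells that had received ethanol. Ribosomal protein genes of both subunits fell: 38 of 69 were lower in EtOH_Rosi than in EtOH and 1 was higher, where 16.3% and 14.4% of all genes were called lower and higher. The median member differed by -0.22, and the median of all genes was 0.01. Among the 43 members at a level of 8 or more, 32 fell, with a median of -0.31; of all 7256 genes at that level 27.5% fell, with a median of 0.00. The 3 EtOH_Rosi arrays lay below the 3 EtOH arrays in 43 of 69 members and above them in 2, against 20.9% and 19.9% of all genes. Single falls were modest, the largest being 1.49-fold. The count of 38 ranged from 27 to 40 when any 1 array was left out.

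The largest fall was that of Rps3a1 (probe set 17289787), a small subunit protein. It measured 11.10, 11.32 and 11.16 in EtOH, 10.88, 10.91 and 10.90 in 4OHT, 10.70, 10.66 and 10.49 in EtOH_Rosi, and 10.32, 10.43 and 10.56 in 4OHT_Rosi. The EtOH arrays were the highest and the 4OHT arrays came next, and no array with rosiglitazone reached either group. EtOH_Rosi differed from EtOH by -0.58 ± 0.08 (adjusted p = 6.76e-05), a level 33% lower. Rpl13 (probe set 17449647), of the large subunit, measured 10.15, 10.27 and 10.24 in EtOH, 9.88, 9.94 and 10.03 in 4OHT, 9.63, 9.67 and 9.65 in EtOH_Rosi, and 9.47, 9.57 and 9.68 in 4OHT_Rosi. It kept the same order, and in both genes the rosiglitazone groups overlapped each other. Its difference was -0.57 ± 0.07 (adjusted p = 1.53e-05). A dimmer probe set of Rps3a1 and one of Rpl13 did not show the fall (values below). Rps12 (probe set 17239744), again of the small subunit, measured 10.88, 10.91 and 10.89 in EtOH and 10.33, 10.48 and 10.36 in EtOH_Rosi, with 10.66, 10.64 and 10.74 in 4OHT and 10.29, 10.26 and 10.44 in 4OHT_Rosi. The arrays with and without rosiglitazone did not overlap (-0.50 ± 0.06 between EtOH_Rosi and EtOH, adjusted p = 3.47e-05). The next falls were those of the dim Rpl27a (-0.47), Rps3 (-0.46), which lines the entry of the messenger RNA channel, and the near-copy Rpl6l together with Rpl5 (-0.45 each).

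**Figure D1:**
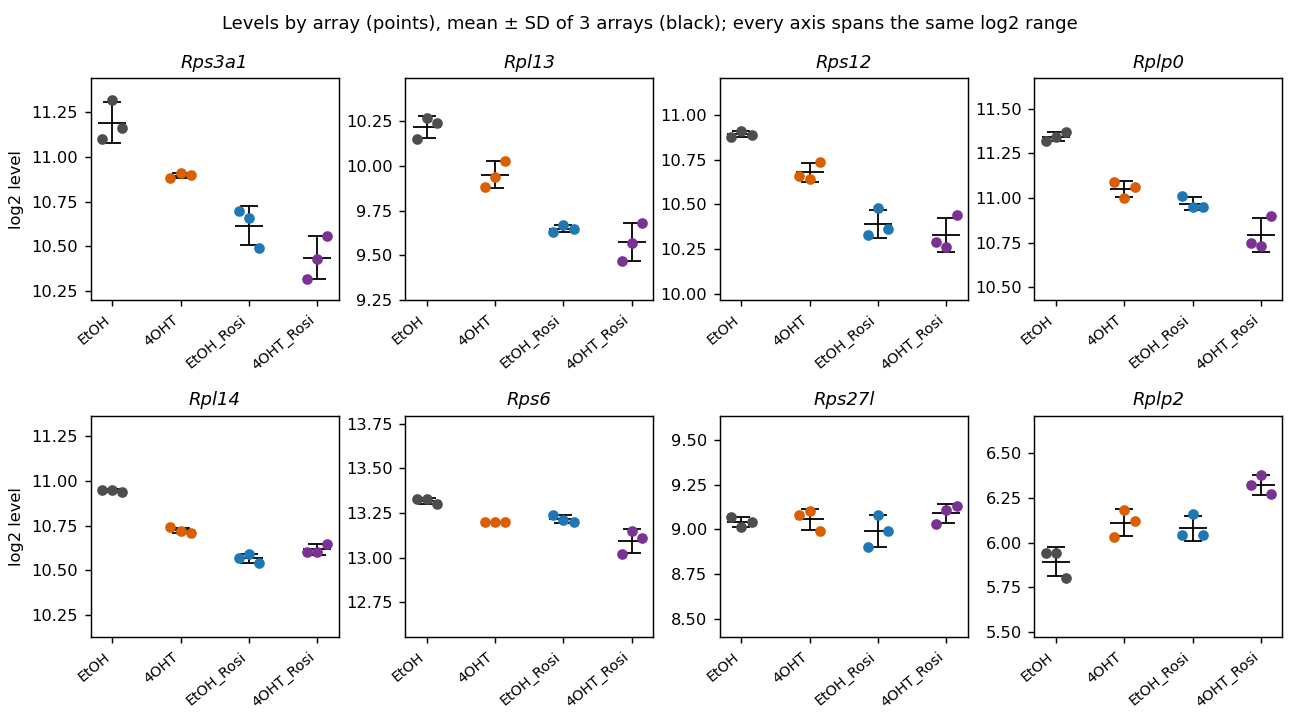
Log2 level of 8 members on each of the 12 arrays (points, coloured by group), with the mean ± SD of the 3 arrays of a group in black; every vertical axis spans the same log2 range. Rps3a1, Rpl13, Rps12, Rplp0 and Rpl14 are highest in EtOH and lower with rosiglitazone, Rps6 moves little, Rps27l is level, and the dim Rplp2 runs the other way, from 5.89 in EtOH to 6.32 in 4OHT_Rosi.

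Both subunits took part. Of 42 symbols starting with Rpl 25 fell, with a median of -0.23. Of 27 starting with Rps 13 fell, with a median of -0.20. Of all genes 16.3% fell, and 27.5% of those at level 8 or more. This split is by name only, so it includes paralogs, near-copies and Rps19bp1, which is no subunit. The stalk of the large subunit, which recruits elongation factors, gave mixed values. Its base protein Rplp0 measured 11.32, 11.34 and 11.37 in EtOH against 11.01, 10.95 and 10.95 in EtOH_Rosi. All EtOH_Rosi arrays were below all EtOH arrays, and the fall was -0.37 ± 0.06 (adjusted p = 0.000218). Rplp1 fell by 0.31 on the log2 scale (adjusted p = 0.00222). The dim Rplp2, with 5.94, 5.94 and 5.80 in EtOH and 6.04, 6.16 and 6.04 in EtOH_Rosi, was the 1 member that rose (0.19 ± 0.07, adjusted p = 0.0437). That call was lost without any 1 of 8 of the 12 arrays. Rpl3, close to the catalytic centre of the large subunit, fell by 0.31. On the small subunit, Rpsa and the X-linked Rps4x each fell by 0.37. Rps6 was 13.33, 13.33 and 13.30 in EtOH and 13.24, 13.21 and 13.20 in EtOH_Rosi. Its groups did not overlap, but the difference of -0.10 ± 0.05 did not pass (adjusted p = 0.167). Rps19, a gene mutated in Diamond-Blackfan anaemia, gave -0.19 (adjusted p = 0.0792) and Rpl27 gave -0.05 (adjusted p = 0.545).

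The members also include paralogs and partners of the standard subunits. At a level of 8 or more, 31 of 38 standard subunits fell and all 38 had a difference below 0, with a median of -0.32. Of the 20 standard subunits below that level 6 fell and 1 rose, with a median of -0.09. Of the 11 symbols set apart by name as paralogs, near-copies or partners, 1 fell (Rpl6l) and 0 rose by limma. Their median was 0.01, and 6 of them lay below level 8. What Rps23rg1, one of them, codes for was not examined. Of all genes 16.3% fell. Rps27l, a p53-responsive paralog of Rps27, measured 9.07, 9.01 and 9.04 in EtOH and 8.90, 9.08 and 8.99 in EtOH_Rosi. The groups overlapped (-0.05, adjusted p = 0.618). Rpl7l1 gave 0.01 and Rpl39l 0.12, neither of which passed. Rps19bp1, which is named for binding Rps19 and is no subunit, gave 0.16 (adjusted p = 0.143). The difference between standard subunits and these symbols was not tested. Fau, which codes for a fused precursor of a small subunit protein and is outside the symbol rule, was bright (12.73 in EtOH) and gave -0.04 (adjusted p = 0.681).

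Other members, chosen for their brightness, partners or paralogs, gave further values. Rpl22, a large subunit protein with a paralog, Rpl22l1, measured 6.71, 6.68 and 6.61 in EtOH, 6.6, 6.57 and 6.58 in 4OHT, 6.49, 6.5 and 6.5 in EtOH_Rosi, and 6.43, 6.42 and 6.42 in 4OHT_Rosi. Its 4 groups did not overlap, with EtOH the highest. It fell with rosiglitazone after ethanol (-0.17, adjusted p = 0.0179), while Rpl22l1 gave -0.01 (adjusted p = 0.961). Rpl5 measured 6.5, 6.21 and 6.29 in EtOH and 5.81, 5.93 and 5.92 in EtOH_Rosi. All EtOH_Rosi arrays were lower (adjusted p = 0.0157), yet its partner Rpl11, also dim, gave 0.01 (adjusted p = 0.962). Rpl39 gave -0.11 and Rps27 -0.03, and neither passed. Of the brightest members, Rpl21 fell by 0.23 and Rpl41, the smallest ribosomal protein, by 0.16 on the log2 scale. Rpl15 and Rpl35, whose start sequences are given above, measured 12.49, 12.6 and 12.54 and 12.53, 12.59 and 12.57 in EtOH. In EtOH_Rosi they measured 12.29, 12.25 and 12.19 and 12.27, 12.23 and 12.18. In neither gene did the groups overlap, and the differences were -0.30 (adjusted p = 0.00168) and -0.34 (adjusted p = 0.000312).

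Where several probe sets of a member lay at a level of 8 or more, they gave like values. In 7 members at least 2 differing probe sets lay at that level. All 17 probe sets of these members were below 0 in this comparison, and 16 were called lower. Probe sets of 1 gene differed by 0.12 at most. Dimmer probe sets were outside this check and varied. That of Rps3a1 (17406440) read 5.08, 4.96 and 5.04 in EtOH and 5.14, 5.10 and 5.24 in EtOH_Rosi. That of Rpl13 (17513856) read 6.56, 6.66 and 6.74 against 6.77, 6.68 and 6.43 in the same groups. That of Rplp0 (17441191) was lower, with 7.02, 7.07 and 6.85 against 6.75, 6.68 and 6.75. Of the 26 members below 8, whose arrays spread more, 6 fell (23.1%) and 1 rose (3.85%), with a median of -0.03. Of all genes, at any level, 16.3% fell and 14.4% rose. The share of all genes below 8 was not counted, and dim and bright members were not compared by a test. Among the 11 members at 12 or more, 10 fell, with a median of -0.23. The 19 between 10 and 12 had a median of -0.37 (16 fell) and the 13 between 8 and 10 one of -0.20 (6 fell). Of all genes 28.0% fell at 12 or more, 28.3% at 10 or more and 27.5% at 8 or more. Shares of all genes between 10 and 12 and between 8 and 10 were not counted.

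**Figure D2:**
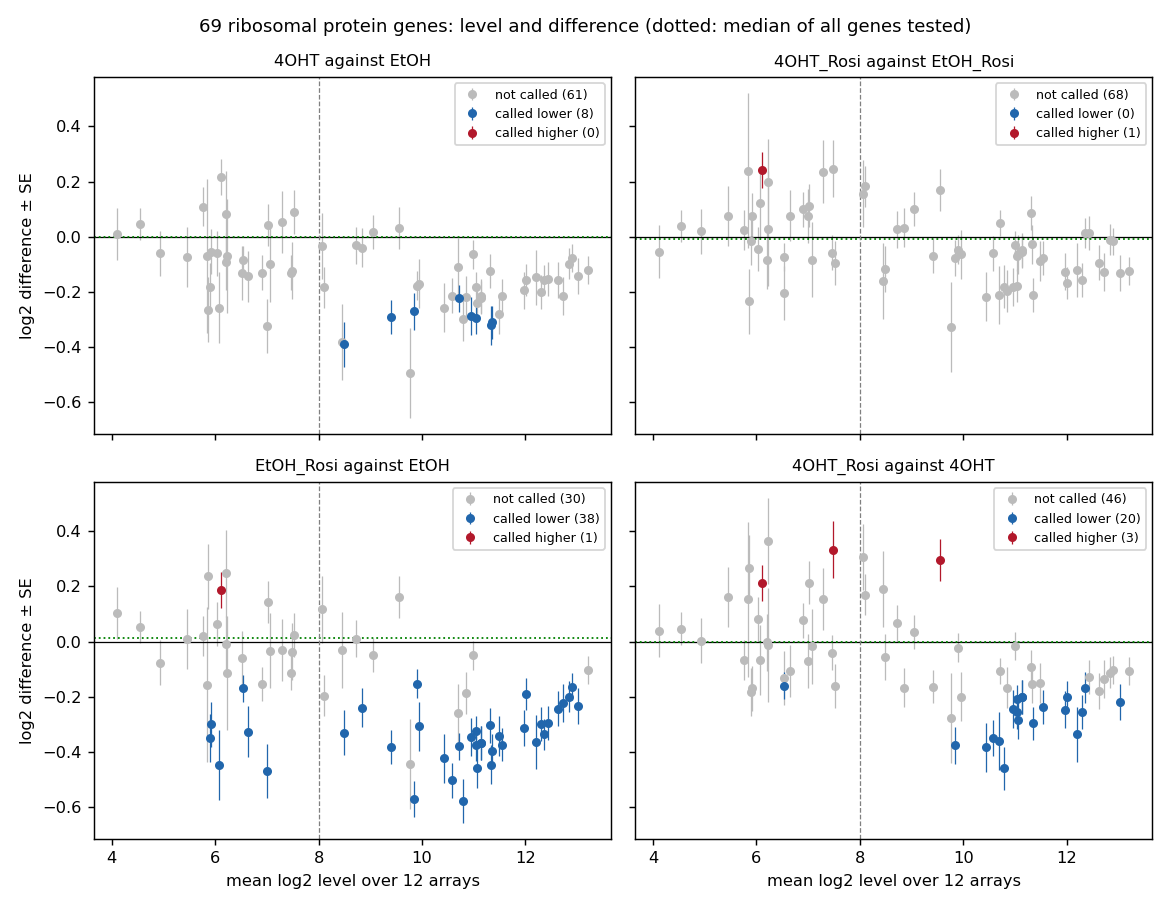
Log2 difference ± SE against mean log2 level over 12 arrays for the 69 members in 4 comparisons, blue where called lower, red where called higher and grey where not called; the dashed line marks level 8 and the dotted line the median of all genes tested. With rosiglitazone after ethanol 38 members are called lower, most of them to the right of the dashed line, against 20 after 4-hydroxytamoxifen, 8 for 4OHT against EtOH and 0 for 4OHT_Rosi against EtOH_Rosi.

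Rosiglitazone was also compared with none in cells that had received 4-hydroxytamoxifen, on arrays that the first comparison did not set side by side, although the fit shares 1 estimate of spread over all 12. Ribosomal protein genes fell here too, in smaller number. Of 69, 20 were lower in 4OHT_Rosi than in 4OHT and 3 were higher, against 12.1% and 11.6% of all genes. Among the 43 members at a level of 8 or more, 19 fell (44.2%) and 1 rose. Of all genes at that level 21.8% fell and 23.9% rose. Of the 26 members below it 1 fell and 2 rose. The median member differed by -0.11 and the median gene by 0.00. Of the 20, 19 were also among the 38 that fell after ethanol (95% of one list and 50% of the other), and the exception was Rpl9. Rps3a1 again had the largest fall (-0.46 ± 0.08, adjusted p = 0.000695), followed by Rpl7 (-0.38), Rpl13 (-0.38), Rpl9 (-0.36), Rps12 (-0.35) and Rps26 (-0.34). Rplp0 fell by 0.26 and Rpsa by 0.20 on the log2 scale, while Rps6 gave -0.11 (adjusted p = 0.175). The 3 arrays of 4OHT_Rosi lay below those of 4OHT in 30 members, against 18% of all genes.

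The 3 rises were those of Rplp2 (0.21), Rps4l, a paralog of Rps4x (0.33), and Rps19bp1 (0.30). Rps19bp1 measured 9.50, 9.53 and 9.36 in 4OHT and 9.69, 9.74 and 9.85 in 4OHT_Rosi. All 3 rosiglitazone arrays were higher (adjusted p = 0.0114). Rps4l measured 7.50, 7.27 and 7.29 in 4OHT and 7.59, 7.50 and 7.97 in 4OHT_Rosi; the groups touched at 7.50. The counts rested on single arrays. Without 4OHT 1, 4OHT 2, 4OHT_Rosi 1 or 4OHT_Rosi 2 the lower count was 11, 12, 10 and 12, and the higher count was 0 without 4OHT 3 and 5 without EtOH 1. Of the 23 calls 9 were kept without each array in turn, Rps3a1, Rpl13, Rps12, Rps28 and Rplp0 among them; after ethanol 25 of 39 were.

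The next comparison asked what 4-hydroxytamoxifen changed in cells without rosiglitazone. Here 8 of 69 members fell and 0 rose, against 1.79% and 2.13% of all genes; 34 of 69 had an unadjusted p under 0.05, and every alternative fit also gave 0 higher. The median member differed by -0.15 and the median gene by 0.00, and 59 of 69 members were below 0. The 3 arrays of 4OHT lay below those of EtOH in 38 members and above them in 2, against 11.7% and 11.2% of all genes. This comparison uses the same EtOH arrays as the first, so their values are not independent of each other.

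Rps7 had the largest called fall. This small subunit protein measured 8.81, 8.74 and 8.79 in EtOH, 8.34, 8.32 and 8.51 in 4OHT, 8.41, 8.53 and 8.41 in EtOH_Rosi, and 8.16, 8.34 and 8.5 in 4OHT_Rosi. EtOH was highest, and the other groups overlapped (-0.39 ± 0.08 between 4OHT and EtOH, adjusted p = 0.0178). Rpl6l followed at -0.32, Rps28 at -0.31, Rplp0 and Rps24 at -0.29 each and Rpl10a at -0.29. Rps28, which lies near the exit of the messenger RNA channel, measured 11.67, 11.66 and 11.70 in EtOH against 11.32, 11.36 and 11.42 in 4OHT. The groups stood clearly apart (adjusted p = 0.0108). Rpl13 (-0.27) and Rpl14 (-0.22) made up the 8. Rps3a1 gave -0.30 (adjusted p = 0.0569) and Rps13 gave -0.49 with a wide error (0.16, adjusted p = 0.128). Leaving out arrays moved the count of 8: it was 2 without EtOH 2, 1 without EtOH 3, 2 without 4OHT 1, 1 without 4OHT 2, 4 without 4OHT 3 and 14 without 4OHT_Rosi 3, and no call was kept without each array in turn. Other fits gave between 5 and 28.

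In cells with rosiglitazone, 4-hydroxytamoxifen was followed by few calls. By limma 0 of 69 members fell and 1, Rplp2, rose (0.24 ± 0.07, adjusted p = 0.0362), against 3.38% and 4.65% of all genes; 13 had an unadjusted p under 0.05. The lower count was 0 to 5 by the other fits, 1 without EtOH_Rosi 3 and 2 without 4OHT_Rosi 3, and the Rplp2 call was lost without any 1 of 6 arrays. The median member differed by -0.05. The arrays of 4OHT_Rosi lay below those of EtOH_Rosi in 10 members and above them in 3, against 10.3% and 11.5% of all genes. Rplp0 measured 11.01, 10.95 and 10.95 in EtOH_Rosi and 10.75, 10.73 and 10.90 in 4OHT_Rosi. Its groups did not overlap, but the difference of -0.18 ± 0.06 did not pass (adjusted p = 0.0918). Without 4OHT_Rosi 3 the Rplp0 difference was -0.23 (adjusted p = 0.0344).

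Whether the 4-hydroxytamoxifen difference depended on rosiglitazone was tested as an interaction. By limma 0 of 69 members were called in either direction, against 0.523% and 0.482% of all genes, and 10 had an unadjusted p under 0.05. The fit with an intensity trend called 1, as did the fit without 4OHT_Rosi 2. The median interaction was 0.11, and 8 of 69 were below 0, so most differences were less negative with rosiglitazone; those differences were not shown to differ. Single values reached 0.40 in Rpl27a (adjusted p = 0.201), 0.38 in Rpl5 (adjusted p = 0.372), and 0.37 in both Rps4l (adjusted p = 0.265) and Rps25 (adjusted p = 0.131). Rpl14 had the smallest p of the members, at 0.27 (adjusted p = 0.0872).

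Across the 4 groups the commonest profile was a maximum in EtOH. EtOH had the highest group mean in 52 of 69 members and 4OHT_Rosi the lowest in 39. The order EtOH, 4OHT, EtOH_Rosi, 4OHT_Rosi held in 28. These profiles were not counted over all genes. In 33 members (47.8%) all 3 EtOH arrays were above the other 9, which held for 6.09% of all genes; 31 of the 33 were at a level of 8 or more. The mean of the 43 members at that level was 11.03 to 11.10 on the EtOH arrays, 10.86 to 10.89 on the 4OHT arrays and 10.77 to 10.81 on the EtOH_Rosi arrays. The 4OHT_Rosi arrays ranged more widely, from 10.64 to 10.83. They overlapped EtOH_Rosi, and 4OHT_Rosi 3 was above 4OHT_Rosi 1 and 2 in 36 of the 43. Over the same arrays the mean of all genes at that level lay between 9.51 and 9.62, with 9.51 to 9.59 in EtOH. In all, 27 members were called in no comparison.

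**Figure D3:**
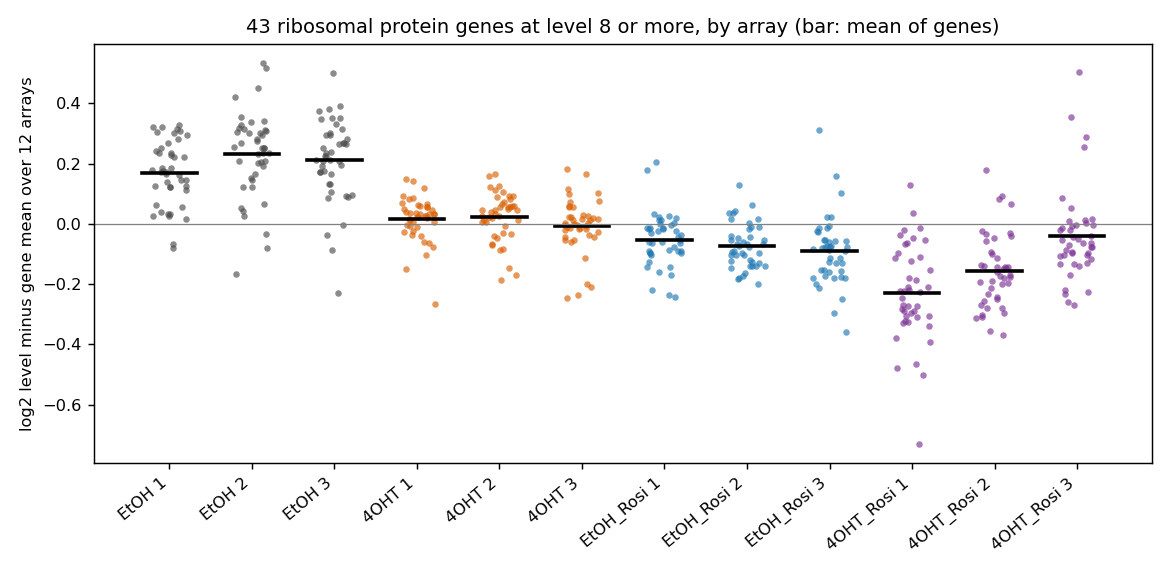
Log2 level of the 43 members at level 8 or more on each array, as the difference from each gene's own mean over 12 arrays (points), with the mean of the 43 genes as a bar. The bars of all 3 EtOH arrays stand above the rest, and within 4OHT_Rosi the bar of the array numbered 3 stands highest.

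Ribosomes also need rRNA, assembly factors and translation factors, and these genes were counted with the members. For rosiglitazone after ethanol, other transcripts with a TOP motif also fell: 9 of 17 were lower and 0 higher by limma (11 had an unadjusted p under 0.05), with a median of -0.18. Among them were the elongation factor Eef1b2 (-0.51), the initiation factor Eif3f (-0.40) and nucleophosmin, Npm1 (-0.42), a nucleolar chaperone. Some of these genes also count in the next lists. Of 10 elongation factors 4 fell and 1 rose. Of 31 initiation factors 7 fell (22.6%) and 4 rose (12.9%), near the 16.3% and 14.4% of all genes, and the lower count was 3 without EtOH 2 and 4 without EtOH 3 or EtOH_Rosi 2. Eif2s2, which is part of the factor that brings in the initiator tRNA, fell by 0.52 on the log2 scale. Of 6 host genes of small nucleolar RNAs, whose transcripts also carry TOP motifs, 4 fell, with the largest fall in Snhg5 (-0.68).

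Assembly factors were called at shares near those of all genes. Of 76 of them 15 fell (19.7%) and 8 rose (10.5%), with a median of -0.05, against 16.3% and 14.4% of all genes, and the 3 with the smallest p rose: Las1l (0.48), which acts on the spacer of the precursor rRNA, Pak1ip1 (0.50) and the methyltransferase Nop2 (0.33). Of 13 genes of RNA polymerase I, which makes the rRNA precursor, 3 rose and 2 fell. Taf1d, a subunit of its selectivity factor, rose by 0.60. The rises numbered 1 without EtOH_Rosi 2, and the falls 1 without EtOH 2 or EtOH_Rosi 3. Of 21 genes that control ribosome synthesis, 10 rose and 4 fell, the latter being 2 without EtOH 1, EtOH 3 or EtOH_Rosi 3. Mtor, the kinase itself, rose by 0.92 (adjusted p = 2.36e-07) and its partner Mlst8 by 0.51. The mTOR inhibitor Deptor fell by 0.43 on the log2 scale. The list mixes activators with inhibitors, so its counts give no direction of control. Not every inhibitor in it fell: Ddit4 had a mean of 9.84 in EtOH and 10.65 in EtOH_Rosi, and Mxi1 8.44 and 8.94. Larp1, which binds TOP messages, gave 0.07 (adjusted p = 0.328), and Myc fell by 0.26 (adjusted p = 0.0219). A transcript level does not measure kinase activity. Of 17 aminoacyl-tRNA synthetases 3 rose and 3 fell, and either count was as low as 1 without an array: the rises without EtOH 2, EtOH 3, EtOH_Rosi 2 or EtOH_Rosi 3, the falls without EtOH 1 or EtOH_Rosi 3.

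For 4OHT against EtOH, 2 of 17 other TOP transcripts and 3 of 6 small nucleolar RNA hosts fell, against 1.79% of all genes. Neither count was stable: the TOP count was 0 without EtOH 2, 4OHT 1 or 4OHT 2 and 1 without EtOH 1 or 4OHT 3. The host gene count was 1 when 4OHT 3 was left out and 0 when any of 4OHT 1, 4OHT 2, EtOH 1 and EtOH 2 was. For rosiglitazone after 4-hydroxytamoxifen 4 of 17 TOP transcripts fell (2 without 4OHT_Rosi 1 and 7 without 4OHT_Rosi 3), beside 20 of 69 members. Of all genes 12.1% fell there. The TOP share of 23.5% was near the 21.8% of all genes at level 8 or more.

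Mitochondria have ribosomes of their own, which translate a few subunits of the respiratory chain. In both rosiglitazone comparisons the protein genes of these ribosomes moved the other way. Of 71 mitochondrial ribosomal protein genes 61 rose and 0 fell by limma with rosiglitazone after ethanol, with a median of 0.39. Of all genes 14.4% rose and 16.3% fell, and 28.6% of those at level 8 or more rose. Without 4OHT_Rosi 3 the mitochondrial falls numbered 1. The largest of the 3 with the smallest p was Mrpl1 (0.89, adjusted p = 4.01e-07), followed by Mrpl47 (0.82) and Mrpl51 (0.76). After 4-hydroxytamoxifen 55 rose and 0 fell, with a median of 0.34. There 11.6% of all genes rose and 12.1% fell, and 23.9% of those at level 8 or more rose. In the same comparisons the cytosolic members had medians of -0.22 and -0.11. Between 4OHT and EtOH 0 of 71 mitochondrial genes were called by limma (10 had an unadjusted p under 0.05), and 1 rose without 4OHT_Rosi 3. Their median was 0.05 against -0.15 for the cytosolic members. Between 4OHT_Rosi and EtOH_Rosi 5 of the 71 fell and 2 rose, against 3.38% and 4.65% of all genes. Without 1 array these counts were 2 to 6 and 0 to 2. The medians there were -0.06 for the mitochondrial genes and -0.05 for the cytosolic members. The array means of the 71 genes were 8.71 to 8.84 in EtOH, 8.77 to 8.83 in 4OHT, 9.16 to 9.24 in EtOH_Rosi and 9.14 to 9.18 in 4OHT_Rosi, so the groups with rosiglitazone stood above those without on every array.

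**Figure D4:**
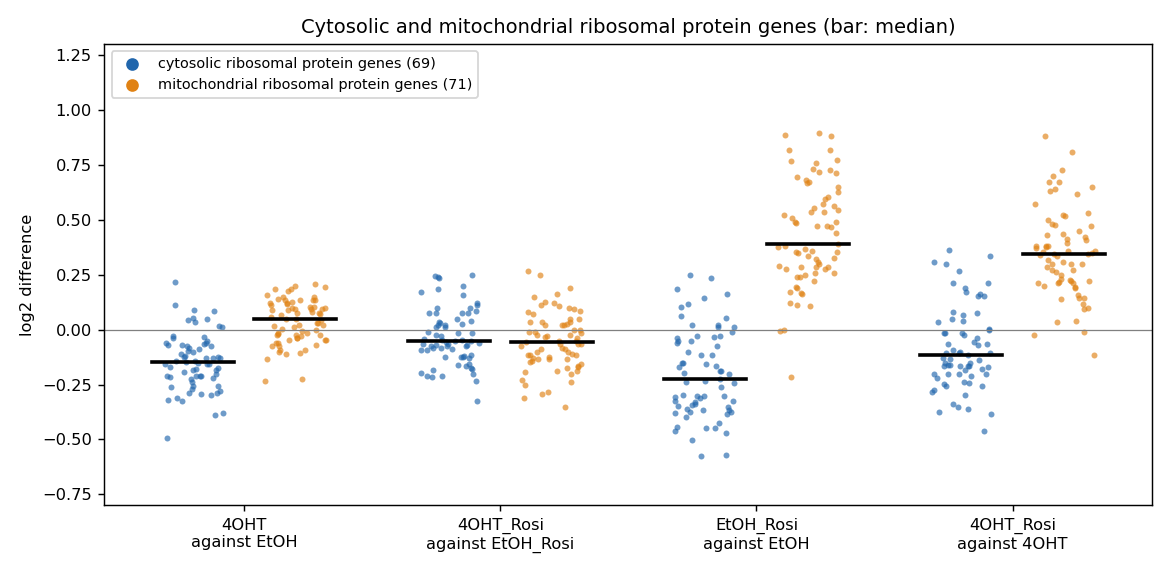
Log2 difference of each of the 69 cytosolic (blue) and 71 mitochondrial (orange) ribosomal protein genes in 4 comparisons, with the median as a bar. In both rosiglitazone comparisons the mitochondrial medians are 0.39 and 0.34 and the cytosolic medians -0.22 and -0.11.

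Other genes moved along with the members, and their part in these results was not tested. All 9 proliferation markers fell with rosiglitazone after ethanol, with a median of -0.94, Top2a by 1.24 and Mki67 by 1.27 on the log2 scale. All 9 also fell in 4OHT against EtOH, beside 1.79% of all genes (6 to 9 of the markers when 1 array was left out). Their mean log2 level was 8.25 to 8.30 in EtOH, 7.53 to 7.73 in 4OHT, 7.20 to 7.30 in EtOH_Rosi and 7.05 to 7.35 in 4OHT_Rosi, with 4OHT_Rosi 3 the highest of its group. Markers of several other cells fell with rosiglitazone after ethanol, where 16.3% of all genes fell and 14.4% rose. The falls were 5 of 6 of adipose progenitors, 7 of 9 of macrophages and leukocytes, 5 of 5 of endothelium and 5 of 5 of smooth muscle and myofibroblasts. The progenitor mean was 9.58 to 9.69 in EtOH, 9.58 to 9.72 in 4OHT, 8.41 to 8.63 in EtOH_Rosi and 8.42 to 8.78 in 4OHT_Rosi. The macrophage mean was 8.47 to 8.76, 8.35 to 8.53, 8.04 to 8.17 and 8.14 to 8.24 in the same order, and the endothelial mean was 9.92 to 10.02, 9.79 to 9.91, 9.15 to 9.26 and 9.07 to 9.39. The smooth muscle mean was 9.50 to 9.76, 9.72 to 9.80, 8.45 to 8.81 and 9.13 to 9.48. The lymphocyte mean stayed between 5.04 and 5.29 on all arrays. Of 3 mesothelial markers 1 rose (Krt19, 0.91) and 0 fell with rosiglitazone after ethanol, with a median of 0.18. Their mean was 5.99 to 6.14 in EtOH and 6.39 to 6.55 in EtOH_Rosi. Of 3 skeletal muscle markers 0 were called, with a median of 0.18. Without 1 array the rises numbered 1 to 2 and 0 to 1 in these lists. In 4OHT against EtOH 2.13% of all genes rose and 1.79% fell. The progenitor list had 1 rise there (Pi16, 1.02) and 1 fall (Pdgfra, -0.53), or 2 falls without 4OHT_Rosi 3. The endothelial list had 0 calls by limma and 1 unadjusted p under 0.05. Of the macrophage markers Itgam (-0.63) and Lyz2 (-0.24) fell and Fcgr1 (0.54) rose. Leaving out 4OHT 2 or 4OHT 3 lost both falls, and leaving out any EtOH array lost 1 of them. The rise was lost when any EtOH array, 4OHT 1 or 4OHT 2 was left out. Of the smooth muscle markers Myh11 (0.43) and Des (0.40) rose, 1 of them when EtOH 1, 4OHT 1 or 4OHT 2 was left out. Of the adipocyte markers Cebpa (0.34) and Pparg (0.24) rose and Cidec fell (-0.39). Both rises were lost when any of 4OHT 1, 4OHT 2, EtOH 2 and EtOH 3 was left out, and 1 was lost in the absence of 4OHT 3. Of 8 adipocyte markers 5 rose and 1, Lep, fell with rosiglitazone after ethanol, against 14.4% and 16.3% of all genes. In such bulk RNA fewer cells of a type and less RNA per cell cannot be told apart.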

How the data were processed

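The deposited values are log2 levels of 41345 probe sets on 12 Affymetrix arrays; Affymetrix Expression Console is named in the submitters' processing notes, with no version; how it summarized and normalized the probes is not given here. Of these, 23521 probe sets had 1 gene symbol; the brightest per gene left 22180 genes, with no filter on dim genes. Arrays were grouped by their labels. limma 3.58.1 in R 4.3.3 fitted 1 mean per group to all 12 arrays (lmFit, eBayes), with 5 contrasts and Benjamini-Hochberg adjustment over all genes. The fit was tested on simulated data. Tables and figures used pandas 2.3.3 and matplotlib 3.10.9 in Python 3.11.15.

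The members, gene lists and marker lists were chosen with earlier results of these data known. Named members were up to 6 called rises and falls per contrast with the largest difference, a set of stalk, paralog and well-studied subunits, and the 3 brightest and 3 dimmest; of each list, up to 3 called genes with the smallest p per contrast; and Prdm16. Members named outside that rule (among them Rpl7a, Rpl14, Rpl15, Rpl27, Rpl35, Rps13, Rps14, Rps15, Rps18, Rps20 and Rps25) and Fau, Larp1, Myc and the adipocyte genes were chosen after their values were seen. Alternatives were a replicate block, fits of 2 groups, robust eBayes with an intensity trend, weights for arrays, median centring, quantile normalization, a filter on dim genes, averaging a gene's probe sets, standard subunits only, and leaving out each array. Probe sets with several symbols (57 that name a member) were not used.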

Additional observations from a re-analysis of the deposited data

Results flagged for a closer look

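In 2 members the 4OHT arrays lay wholly below the EtOH arrays, while the 4OHT_Rosi arrays lay wholly above the EtOH_Rosi arrays. Of all genes, 11.7% lay wholly lower and 11.2% wholly higher in 4OHT than in EtOH. In 4OHT_Rosi against EtOH_Rosi these shares were 10.3% and 11.5%. The share of all genes with opposite separations was not counted, so these 2 members are not shown to exceed it. Rpl14 measured 10.95, 10.95 and 10.94 in EtOH and 10.74, 10.72 and 10.71 in 4OHT, but 10.57, 10.59 and 10.54 in EtOH_Rosi and 10.60, 10.60 and 10.65 in 4OHT_Rosi. With rosiglitazone the nearest Rpl14 values of the groups were 10.59 and 10.60, a narrow separation. The Rpl14 interaction was 0.273 on the log2 scale and did not pass limma's test (adjusted p = 0.0872). Rps25 measured 8.16, 8.17 and 8.28 in EtOH and 8.0, 7.96 and 8.10 in 4OHT, against 8.04, 8.0 and 7.98 in EtOH_Rosi and 8.14, 8.07 and 8.36 in 4OHT_Rosi. Its interaction was 0.367 and did not pass either (adjusted p = 0.131). Groups of 3 arrays were not searched for single outlying values.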

How the results depend on the processing

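Medians of the members kept their sign in the alternatives, and that of EtOH_Rosi against EtOH was -0.307 over members at level 8 or more. The count lower in EtOH_Rosi than in EtOH stayed within 1.5 times of 38. The others moved more. For 4OHT against EtOH the lower count was 14 in a fit of the 2 groups, 23 with an intensity trend, 28 with array weights, 5 with median centring and 18 among genes at or above the median level, and 1 to 14 without 1 array. For 4OHT_Rosi against 4OHT the lower count was 13 in the fit of the 2 groups and 13 for the mean of all probe sets, and 10 to 24 without 1 array. The higher count was 6 with quantile normalization, 1 for standard subunits (with or without Rpl6l, Rpl32l and Rps23rg1), 1 at level 8 or more, and 0 to 5 without 1 array. For 4OHT_Rosi against EtOH_Rosi the higher count was 0 in the fit of the 2 groups, with the trend, with array weights, among brighter genes and at level 8 or more; the lower count was 5 with the trend, 1 with array weights, 1 with quantile normalization and 3 among brighter genes. Without 1 array these counts were 0 to 1 and 0 to 2. For EtOH_Rosi against EtOH the higher count was 0 in the fit of the 2 groups, with the trend, among brighter genes and at level 8 or more, 2 with array weights, and 0 to 1 without 1 array. For the interaction the higher count was 1 with the trend and 1 among brighter genes, and 0 to 1 without 1 array. The cause was not tested. The choices of level 8 and of leaving out Rpl6l, Rpl32l and Rps23rg1 were made after seeing the data.

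Deviations from group means correlated at -0.24 to 0.08 between same-numbered arrays of different groups. Between arrays of other numbers they correlated at -0.16 to 0.32. With 3 arrays a group, these values cannot decide whether same-numbered arrays shared a culture or batch. With the replicate number as a block the lower counts were 39, 17, 6 and 0 for EtOH_Rosi against EtOH, 4OHT_Rosi against 4OHT, 4OHT against EtOH and 4OHT_Rosi against EtOH_Rosi. The median spread within groups was 0.13 for the 26 members under level 8 and 0.07 for the others.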
